A study of Mus musculus with 20 samples.

Results

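The goblet cell and mucus genes described here are 9 genes taken by name from the gene-level table of estimated counts: Muc2, Muc13, Tff3, Clca1, Fcgbp, Spdef, Agr2, Zg16 and Atoh1. They are 9 of the 35204 genes in that table, and all 9 were among the 16306 genes that reached 0.5 CPM (counts scaled to a common library total) in at least 1 mouse and were tested. The rule takes genes by name and uses no measured value, but the list was drawn up with earlier results of these data known.

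RNA sequencing was performed on whole ileal tissue of 20 young adult female C57Bl6 mice, a wild-type strain, in 4 groups of 5. SPF (specific pathogen-free) mice were fed a control amino acid diet (CD) or the same diet with no tryptophan (TDD) for 3 weeks. The other 2 groups received the same diets together with ABX, a cocktail of ampicillin, vancomycin, gentamycin, metronidazole and neomycin given in the drinking water to remove the microbiota, and are called CD+ABX and TDD+ABX. The study asked whether the response of the ileum to dietary tryptophan deficiency needs an intact microbiota, and the same question is asked here of the mucus genes. The diet also lowers body weight, so that lack of tryptophan and loss of weight cannot be told apart. The paper reports a far milder weight loss on TDD with ABX than in SPF mice. On TDD, removal of the microbiota and milder weight loss therefore cannot be told apart either. Each sample was a short piece of bulk tissue in which fewer goblet cells and less RNA per goblet cell cannot be told apart.

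Goblet cells are the secretory cells of the intestinal epithelium that make mucus. Muc2 is folded and linked into chains in the endoplasmic reticulum with the help of Agr2, is glycosylated in the Golgi and is stored in granules together with Tff3, Zg16, Fcgbp and Clca1. Once released it swells into a gel that keeps bacteria away from the epithelium, and Clca1, a secreted metalloprotease, cuts Muc2 within that gel. Atoh1 commits crypt cells to the secretory lineage, and Spdef drives goblet cell maturation. Muc13 differs from the others in being a transmembrane mucin of the apical surface, made by enterocytes as well as by goblet cells.

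Libraries held between 36676963 and 58662617 estimated counts. CD mouse 2 stood farthest from the mean of its group, with a root mean square distance of 0.330 on the log2 scale against 0.136 to 0.268 in the other 19 mice. Its summed enterocyte markers were 21607 CPM, against 29849 to 48749 CPM in all others. Calls on members that changed without this mouse are therefore given with and without it. Named genes other than the members are given only with it. Enterocyte and Paneth cell markers were abundant in every library. However, the bile acid genes that mark the distal ileum were close to 0 in SPF mice. Fabp6, the ileal bile acid binding protein, was at 1.17 ± 0.97 CPM in CD and 1.40 ± 1.58 in TDD, against 41.5 ± 59.4 in CD+ABX and 20.1 ± 13.6 in TDD+ABX (SD, n = 5). Slc10a2, the ileal bile acid transporter, was at 2.35 ± 1.02, 5.89 ± 1.98, 39.5 ± 27.2 and 37.0 ± 16.7 CPM in the same order. Whether a shift in the position sampled takes part in the comparisons of ABX with no ABX was not tested.

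The sequence that best shows what Clca1 does is its protease site. Clca1 (ENSMUSG00000028255.6) lies at chr3:145003817-145032776 on the minus strand (GRCm38), and transcript Clca1-201 of 3655 bases and 14 exons carried nearly all of its counts. The stretch of coding sequence below is from that transcript in the GENCODE M21 annotation. Capitals mark codons 156 to 160 of 913, which code for the zinc-binding motif of the metalloprotease and occur once in the coding sequence.
Clca1 protease site: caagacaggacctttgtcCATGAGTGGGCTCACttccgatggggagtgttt

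Muc2 (ENSMUSG00000025515.15, chr7:141690340-141754693, plus strand) and Fcgbp (ENSMUSG00000047730.17, chr7:28071236-28120862, plus strand) were the members whose promoter held CAGCTG, an E-box of the kind read by basic helix-loop-helix factors, the family of Atoh1. Their 250 bases before the gene start are printed for that reason, from RefSeq on GRCm38, with CAGCTG and TATAAA, the letters of a TATA box, in capitals.
Muc2 promoter, chr7:141690090-141690339: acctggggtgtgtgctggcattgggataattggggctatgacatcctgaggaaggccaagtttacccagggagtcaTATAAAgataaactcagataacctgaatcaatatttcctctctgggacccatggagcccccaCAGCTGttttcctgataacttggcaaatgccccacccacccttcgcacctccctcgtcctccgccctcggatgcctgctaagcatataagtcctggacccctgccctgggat
Fcgbp promoter, chr7:28070986-28071235: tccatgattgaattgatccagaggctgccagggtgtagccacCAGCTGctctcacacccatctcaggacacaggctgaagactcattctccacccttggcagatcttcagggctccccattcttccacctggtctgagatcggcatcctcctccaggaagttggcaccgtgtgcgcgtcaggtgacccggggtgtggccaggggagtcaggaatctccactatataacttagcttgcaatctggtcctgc
CAGCTG, which reads the same on both strands, began 112 bases before the start of Muc2 and 208 bases before that of Fcgbp. It was found in 16.3% of the 32851 RefSeq promoters of 300 bases, and TATAAA, searched on both strands, in 13.6%. Promoters were listed for 6 members. Those of Agr2 (chr12:35992907-36004087, plus strand), Muc13 (chr16:33794037-33819934, plus strand), Spdef (chr17:27714352-27728955, minus strand) and Atoh1 (chr6:64729125-64731245, plus strand) held neither run of letters. Tff3 (chr17:31125306-31129646, minus strand) and Zg16 (chr7:127050156-127087328, minus strand) complete the list.

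The members ranged from among the most abundant transcripts of this tissue to 2 transcription factors of low level. Levels of different genes were compared in TPM, the share of a library's transcripts after correction for transcript length. Zg16, a lectin-like protein that binds Gram-positive bacteria, was the most abundant member at a mean of 4331 TPM over 20 mice (range 3212 to 5784) and ranked 30th among all genes. Tff3, a trefoil peptide of epithelial repair, followed at 1811 TPM (1249.9 to 2208), then Muc13 at 1214 TPM (793 to 2052) and Fcgbp, a large protein of the mucus gel, at 965 TPM (689 to 1415). Agr2 was at 540.1 TPM, Clca1 at 439.5 and Muc2 at 435. Both transcription factors were far lower, Spdef at 14.3 TPM (9.49 to 19.7) and Atoh1 at 10.99 TPM (8.10 to 16.9). The ranges of neighbours in this order were apart only between Zg16 and Tff3 and between Muc2 and Spdef. In single mice Tff3 nevertheless exceeded Muc13 in 20 of 20 mice, Fcgbp exceeded Agr2 in 20 and Spdef exceeded Atoh1 in 20, whereas Agr2 exceeded Clca1, and Clca1 exceeded Muc2, in 13 of 20.

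**Figure D1:**
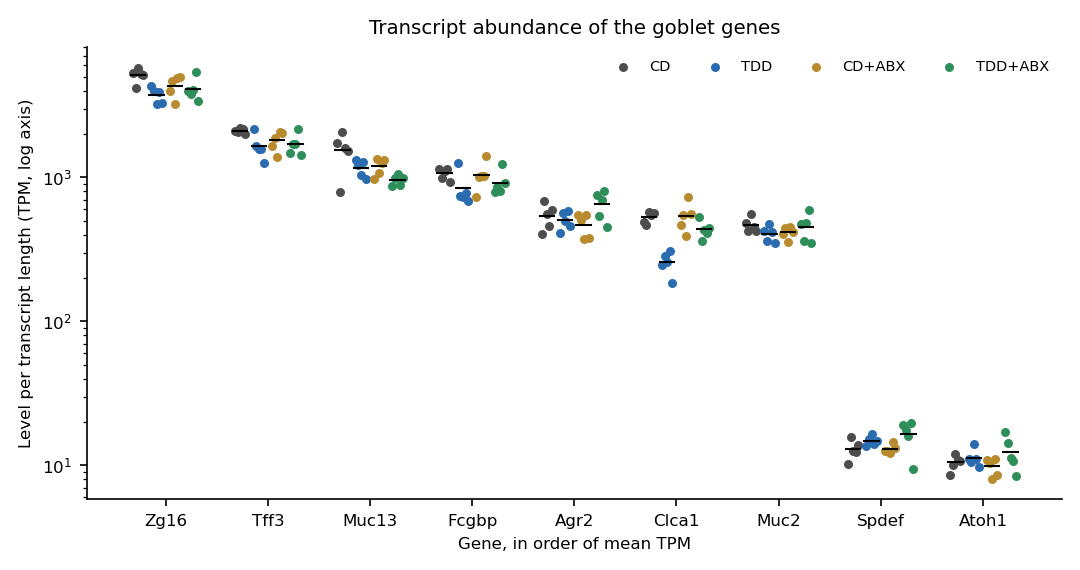
Transcript abundance of the 9 goblet cell and mucus genes in 20 mice, in TPM on a log axis, with genes ordered by mean TPM, 1 point per mouse coloured by group and a bar at each group mean. Zg16 stands highest at a mean of 4331 TPM, and Spdef and Atoh1 sit well below the 7 others, at 14.3 and 10.99 TPM.

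The 9 genes together made up 1.14 ± 0.12% of all TPM in CD mice, 0.859 ± 0.113% in TDD, 0.980 ± 0.145% in CD+ABX and 0.925 ± 0.134% in TDD+ABX (SD, n = 5). These are descriptions of the summed level and carry no test. The TPM of Muc2 is less certain than that of the others. The annotation holds its transcript only as fragments, of which Muc2-207 (2926 bases, start missing) took 76.0 ± 3.9% of its counts in CD mice, and its count in the gene table was 2 times the sum of its transcripts in every mouse. Its CPM is therefore 2 times too high against other genes, but its fold changes are not touched, since the factor was the same in all mice.

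Clca1 was the only member that passed the test. The level of this mucus-cutting protease in TDD mice was 742 ± 143 CPM, against 1461 ± 167 in CD mice, 1493 ± 368 in CD+ABX and 1165 ± 183 in TDD+ABX (SD, n = 5). It fell on TDD in SPF mice and was higher with ABX than without on TDD.

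By mouse, Clca1 was at 1330.4, 1233, 1571, 1575 and 1594 CPM in CD mice 1 to 5. TDD mice were at 743, 813, 714, 913 and 526 CPM, so that the highest TDD mouse lay below the lowest CD mouse. On the log2 scale the difference was -0.98 (SE 0.16, 95% interval -1.32 to -0.64), or 0.508 times the CD level, with q = 0.00062 (edgeR quasi-likelihood test, Benjamini-Hochberg over all genes tested), and all 5 TDD mice were lower. Of all genes tested, 14.4% passed q under 0.05 in this comparison and 1.83% also reached the 2-fold change the study asked for, a limit that Clca1 missed by a small margin. Groups of 5 did not overlap for 9.58% of genes. The difference lay between -1.06 and -0.88 when single mice were left out, with q at most 0.0022.

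Under ABX, Clca1 was at 1281, 1469, 1054, 2025 and 1635 CPM on CD and at 1478, 1002, 1133, 1080.3 and 1133 CPM on TDD. These groups overlapped, with 1 TDD+ABX mouse below all CD+ABX mice. The difference of -0.36 (SE 0.16, 95% interval -0.69 to -0.02) did not pass over all genes (edgeR, unadjusted p = 0.039, q = 0.31). It ranged from -0.46 to -0.23 when single mice were left out, and was nearest to 0 without CD+ABX mouse 4, the highest at 2025 CPM (-0.23, q = 0.61). In this comparison 1.64% of genes passed q under 0.05, 0.307% also reached 2-fold and 4.78% did not overlap.

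On TDD, Clca1 was 1.57 times as high with ABX as without (log2 difference 0.65, SE 0.16, 95% interval 0.31 to 0.99, q = 0.012 by edgeR), and all 5 TDD+ABX mice lay above all 5 TDD mice. Among all genes 15.4% passed q under 0.05 here, 1.63% also reached 2-fold and 11% did not overlap. This comparison and that of TDD with CD in SPF mice share the 5 TDD mice, so the low values of those mice enter both. On CD, ABX left a difference of 0.03 (SE 0.16, 95% interval -0.31 to 0.37, q = 0.93), against a background of 12.6% of genes past q, 2.25% with the fold limit and 9.74% without overlap.

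Whether the effect of diet on Clca1 differed between SPF and ABX-treated mice was tested as the interaction. The difference of the log2 differences was 0.62 (SE 0.23, 95% interval 0.14 to 1.10) with an unadjusted p = 0.013, and it did not pass over all genes (q = 0.37 by edgeR). Of all genes 0.0368% passed this interaction and 0.0245% also reached 2-fold. The diet effect on Clca1 is thus not shown to depend on the microbiota at this threshold.

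**Figure D2:**
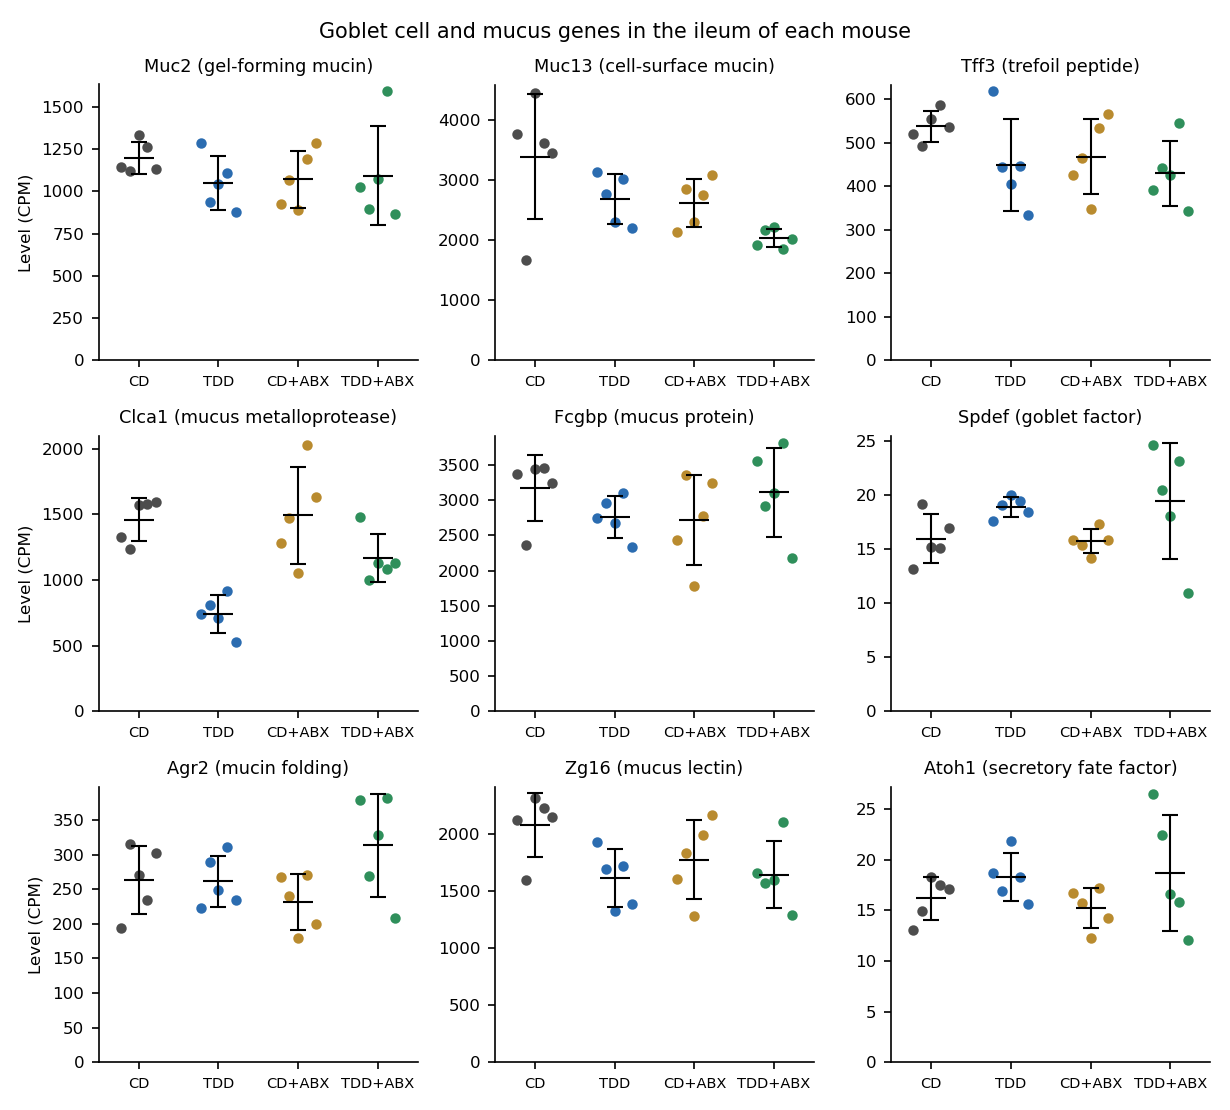
Level of each of the 9 genes in CPM in the 4 groups, with 1 point per mouse and bars for the mean and SD of 5 mice; each vertical axis starts at 0, and the CPM of Muc2 counts its transcripts 2 times. Clca1 is the gene whose TDD mice (526 to 913 CPM) lie apart from CD mice (1233 to 1594 CPM), while the other 8 genes overlap between CD and TDD.

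On TDD in SPF mice 7 of 9 members had negative log2 differences, and Clca1 fell further than the mean of the other 8. Its log2 CPM minus the mean log2 CPM of the other 8 members was 1.81 ± 0.06 in CD mice and 0.92 ± 0.19 in TDD mice, with ranges of 1.76 to 1.87 and 0.67 to 1.14 (SD, n = 5). It was 1.99 ± 0.19 in CD+ABX and 1.59 ± 0.30 in TDD+ABX, with ranges of 1.86 to 2.31 and 1.25 to 1.98. All 5 TDD mice therefore lay below the mice of each of the other groups by this measure as well. This comparison was set up after the values of Clca1 were seen, and it is given as a description with no test.

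**Figure D3:**
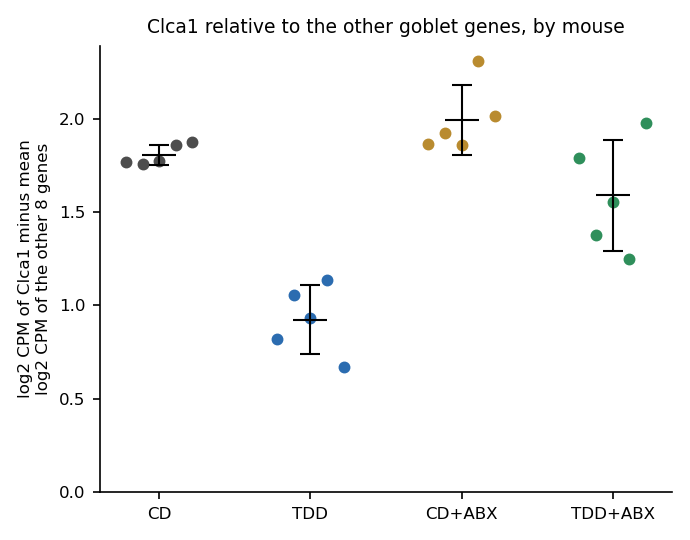
Level of Clca1 relative to the other 8 goblet genes within each mouse, as log2 CPM of Clca1 minus the mean log2 CPM of the others, with bars for the mean and SD of 5 mice per group. The 5 TDD mice lie between 0.67 and 1.14, below all CD mice (1.76 to 1.87) and all TDD+ABX mice (1.25 to 1.98).

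The other secreted products were at slightly lower levels in TDD than in CD mice of the SPF groups, by amounts that did not pass the test. Zg16 came closest. It was at 2115, 1598, 2308, 2226 and 2149 CPM in CD and at 1931, 1694, 1328, 1718 and 1382 CPM in TDD mice. Only CD mouse 2, the library that stood apart, fell into the TDD range. The log2 difference was -0.37 (SE 0.15, 95% interval -0.68 to -0.06) with q = 0.11 by edgeR, and it became -0.46 with q = 0.040 without CD mouse 2.

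Tff3 was at 520.2, 492, 554, 586 and 535 CPM in CD mice, and 4 of 5 TDD mice lay below them, at 443, 406, 445 and 333 CPM, whereas TDD mouse 1 was the highest of all at 619 CPM. The log2 difference of -0.26 (SE 0.15, q = 0.27 by edgeR) did not pass. It was -0.40 with q = 0.058 without TDD mouse 1, and -0.17 with q = 0.53 without TDD mouse 5. Muc2 showed the same arrangement. CD mice were at 1146, 1124, 1337, 1263 and 1131 CPM, 4 TDD mice at 937, 1042, 1108 and 876 CPM and TDD mouse 1 at 1285 CPM (log2 difference -0.19, SE 0.15, 95% interval -0.50 to 0.12, q = 0.43). Fcgbp was at 2764 ± 296 CPM in TDD against 3174 ± 464 in CD (log2 difference -0.20, SE 0.17, q = 0.47). Without CD mouse 2 the Fcgbp difference was -0.30 with q = 0.22 by edgeR.

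In ABX-treated mice the diet left Muc2 at 1093 ± 293 CPM against 1073 ± 169 (log2 difference 0.03, SE 0.15, q = 0.95), Tff3 at 429 ± 74.6 against 467 ± 86.2 and Zg16 at 1641 ± 293 against 1774 ± 343 CPM (SD, n = 5). Fcgbp was at 3114 ± 634 CPM in TDD+ABX against 2719.7 ± 638 in CD+ABX, a log2 difference of 0.20 (SE 0.17, q = 0.63 by edgeR). Its summed TPM went the other way, at 919 ± 187 against 1037 ± 243, so no direction is given for it. With ABX on CD, the log2 differences of Muc2, Tff3, Fcgbp and Zg16 were -0.16, -0.20, -0.22 and -0.23 with q between 0.36 and 0.55, and on TDD they were 0.06, -0.07, 0.17 and 0.03.

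The call on these 4 genes in the comparison of ABX with no ABX on CD depends on what they are scaled to. The 13 pan-epithelial genes, such as keratins Krt8 and Krt19, summed to 17234 ± 2440 CPM in CD+ABX against 14700.3 ± 1802 in CD (SD, n = 5). Scaled to that sum in place of all genes, which shifts the median of all genes by -0.23 on the log2 scale, Muc2, Muc13, Tff3, Fcgbp and Zg16 passed, with log2 differences between -0.59 and -0.41. Under this scaling 4030 of the 16306 genes tested passed, against 2059 in the main fit. Relative to the shift of the median the differences of these members are close to those of the main scaling.

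Muc13, the cell-surface mucin, had negative log2 differences in each of the 4 comparisons, and none passed. CD mice were at 3779, 1674, 4457, 3614 and 3451 CPM, with CD mouse 2 far below the others. TDD mice were at 3136, 2765, 2299.6, 3026 and 2201 CPM, CD+ABX mice at 2136, 2852, 2299, 2748 and 3094 CPM and TDD+ABX mice at 1927, 2172, 2216, 1856 and 2023 CPM. All 5 TDD+ABX mice thus lay below every CD mouse but mouse 2, and 4 of them lay below all TDD mice. TDD against CD gave -0.34 in SPF mice (SE 0.18, q = 0.24) and -0.37 under ABX (SE 0.18, q = 0.37), and ABX against no ABX gave -0.37 on CD (SE 0.18, q = 0.21) and -0.40 on TDD (SE 0.18, 95% interval -0.78 to -0.01, unadjusted p = 0.043, q = 0.15, all by edgeR). The 4 comparisons share groups in pairs. Without CD mouse 2, Muc13 passed in 3 of them, at -0.52 (q = 0.0087) for diet in SPF mice, -0.54 (q = 0.0089) for ABX on CD and -0.37 (q = 0.038) for ABX on TDD. The comparison on TDD holds no CD mouse. Leaving out CD mouse 2 reached it only through what the fit shares over groups, such as scaling and spread. Without CD mouse 3, the highest, the Muc13 difference was closer to 0, at -0.22 (q = 0.49) for diet in SPF mice and -0.25 (q = 0.45) for ABX on CD.

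None of the genes that act upstream of the secreted products passed the test. Agr2, the disulphide isomerase needed to fold Muc2, was at 263 ± 49.7 CPM in CD and 261 ± 37.2 in TDD (log2 difference -0.01, SE 0.17, 95% interval -0.36 to 0.34). Under ABX it was at 379, 269, 329, 382 and 209 CPM on TDD against 268, 240.2, 179.7, 270.2 and 199.6 CPM on CD. Of the TDD+ABX mice, 3 lay above all CD+ABX mice. The log2 difference of 0.44 (SE 0.17, 95% interval 0.09 to 0.79) had an unadjusted p = 0.017 and did not pass over all genes (q = 0.21 by edgeR).

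Spdef was at 13.2, 19.2, 15.3, 15.2 and 17.0 CPM in CD and at 17.7, 19.1, 20.1, 19.5 and 18.5 CPM in TDD mice (log2 difference 0.25, SE 0.15, q = 0.30 by edgeR). TDD+ABX mice were spread widely, at 24.6, 20.5, 18.1, 23.2 and 10.96 CPM, against 14.2 to 17.4 CPM in CD+ABX (log2 difference 0.31, SE 0.15, 95% interval -0.01 to 0.62, q = 0.35). Without TDD+ABX mouse 5, the lowest, it was 0.45 with q = 0.032, and without TDD+ABX mouse 1, the highest, it was 0.20 with q = 0.63. Atoh1 was at 16.2 ± 2.1 CPM in CD, 18.3 ± 2.3 in TDD, 15.2 ± 2.0 in CD+ABX and 18.7 ± 5.7 in TDD+ABX (SD, n = 5), with log2 differences for diet of 0.17 (q = 0.53) in SPF mice and 0.30 (q = 0.42) under ABX.

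Counted over the list, 1 of 9 members passed q under 0.05 for diet in SPF mice, 0 for diet under ABX, 0 for ABX on CD, 1 for ABX on TDD and 0 for the interaction, and 0 passed with the 2-fold limit in any comparison (edgeR). At an unadjusted p under 0.05 the counts were 2, 2, 0, 2 and 1 of 9, beside 28.4%, 14.7%, 26.5%, 30.5% and 8.87% of all genes tested, and DESeq2 and limma-voom also called 0 wherever edgeR did. Without CD mouse 2, 3 members passed for diet in SPF mice, beside 3098 of 16211 genes tested, against 2342 of 16306 with it. In the same 5 comparisons the median log2 difference of the 9 genes was -0.20, 0.03, -0.19, 0.04 and 0.22, beside medians over all genes tested of 0.01, 0.00, 0.00, -0.03 and -0.01. For diet in SPF mice 7 of 9 members had negative values and for ABX on CD 8 of 9, while 47.3% and 51.1% of all genes did. A share of 1 in 9 passing is close to the background of 14.4% and 15.4% in those 2 comparisons and is not a result about the list.

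**Figure D4:**
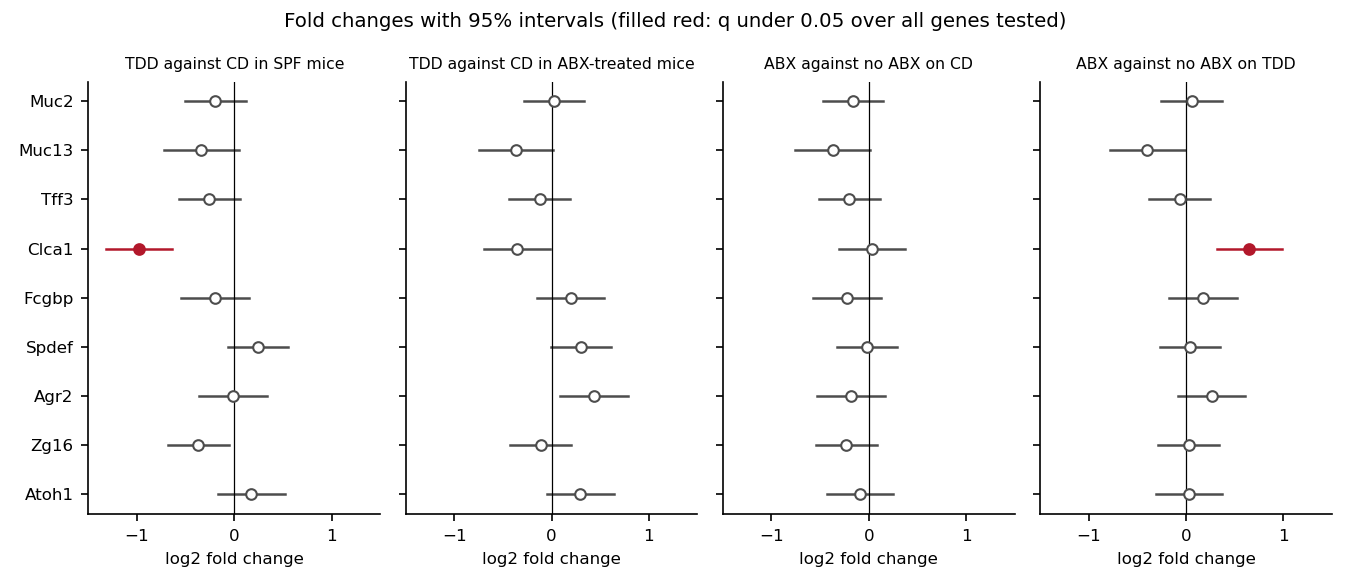
Log2 fold changes of the 9 genes with 95% intervals in the 4 pairwise comparisons, from the edgeR fit to all 20 mice; filled red points passed q under 0.05 over all genes tested. Only Clca1 is filled, at -0.98 for TDD against CD in SPF mice and at 0.65 for ABX against no ABX on TDD.

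Genes that act with the members were counted in lists, and each count is read against the share of all genes called in the same comparison. Of 12 other mucus and goblet cell genes tested, 3 fell and 1 rose on TDD in SPF mice, where 14.4% of all genes were called. Klk1, a secreted serine protease of the kallikrein family, went from 44.9 ± 11.3 to 20.3 ± 3.2 CPM (log2 difference -1.15, SE 0.22, q = 0.0023). Lypd8, a protein that binds flagellated bacteria, went from 1327 ± 505 to 661 ± 151 CPM (-1.01, SE 0.21, q = 0.0036), and Rep15, which encodes an intracellular effector of Rab15 and no secreted product, fell by 0.47 on the log2 scale (q = 0.011). Guca2b, the guanylate cyclase ligand uroguanylin, rose by 0.62 (q = 0.0066, all by edgeR). Lypd8 also fell with ABX on CD (-0.67, q = 0.041, 12.6% of all genes called). In the other 2 pairwise comparisons, diet under ABX and ABX on TDD, 0 of the 12 passed, beside 1.64% and 15.4% of all genes. There 5 and 2 had an unadjusted p under 0.05, beside 14.7% and 30.5% of all genes. Of 6 other cell-surface mucin genes tested, Muc3a rose (0.42, q = 0.021) and Muc4 fell (-0.83, q = 0.047) on TDD in SPF mice (14.4% of all genes called). None passed elsewhere in the edgeR fit. For diet under ABX, ABX on CD and ABX on TDD, 0, 0 and 1 had an unadjusted p under 0.05, beside 14.7%, 26.5% and 30.5% of all genes.

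Of 15 transcription factors and Notch pathway genes of the secretory lineage, 2 rose and 1 fell on TDD in SPF mice, a share not far from the 14.4% of all genes. Dll4, the Notch ligand, went from 13.9 ± 1.9 to 23.5 ± 4.0 CPM (log2 difference 0.76, SE 0.11, q = 0.00019), Foxa1 rose by 0.26 (q = 0.034) and Elf3 fell by 0.35 (q = 0.032). On TDD, Dll4 was lower with ABX than without (-0.50, q = 0.0065), and on CD Foxa1 was higher (0.26, q = 0.040). The median of the 15 was 0.19 for diet in SPF mice and 0.16 under ABX. Of 26 genes of mucin-type O-glycosylation and sulphation, 1 rose and 3 fell on TDD in SPF mice, a share close to the 14.4% of all genes and thus no result about the list. Gcnt3, a branching enzyme of mucin glycans, rose by 0.85 (q = 0.0016), whereas Galnt10, Gcnt4 and Galnt4 were lower by 0.25 to 0.36. With ABX on CD, B3gnt6 (1.03, q = 0.0067) and Fut2 (0.99, q = 0.0072) were among 3 that rose, and 1 fell (12.6% of all genes called). Gcnt4 also fell on TDD under ABX (-0.42, q = 0.015), and with ABX on TDD Galnt10 was higher (0.23, q = 0.020) and Gcnt1 lower (-0.75, q = 0.033).

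Of 17 endoplasmic reticulum chaperones and folding enzymes, which serve all secreted proteins, 10 rose and 1 fell with ABX on CD, where 12.6% of all genes were called, with a median log2 difference of 0.46 beside -0.0048 over all genes. Hspa5, the main chaperone of that compartment, went from 471 ± 53.8 to 976 ± 82.1 CPM (1.05, SE 0.13, q = 8.6e-05). On TDD in SPF mice 5 rose and 1 fell (14.4% of all genes called), with Xbp1 up by 0.38 (q = 0.0022) and Dnajb9 by 0.64 (q = 0.0033). With ABX on TDD 2 rose (15.4% of all genes called), and under ABX the diet left 0 called (edgeR, 1.64% of all genes). At an unadjusted p under 0.05 there were 4 in the latter, beside 14.7% of all genes. Plasma cells also carry this machinery. All 8 plasma cell markers were tested and 4 of them rose on TDD in SPF mice (14.4% of all genes called), 1 being Xbp1, which is in both lists. Their summed level was 619 to 985 CPM in TDD, 491 to 728 CPM in CD, 470 to 635 CPM in CD+ABX and 498 to 638 CPM in TDD+ABX. With ABX on CD, Xbp1 and Sdc1 rose and 3 markers fell (12.6% of all genes called), with a median log2 difference of -0.50 over the 8. With ABX on TDD, 1 marker rose and 5 fell (15.4% of all genes called), with a median of -0.94. The part of plasma cells in the result was not tested. Of 18 genes of granule release and mucus unfolding, Nlrp6 (-0.42, q = 0.0029) and Myo5b (-0.46, q = 0.0072) fell on TDD in SPF mice, a share near that of all genes. With ABX 2 were higher on CD and 2 on TDD, beside 12.6% and 15.4% of all genes called. Mep1a, a meprin subunit, was higher with ABX on both diets (0.91 and 0.87, q = 0.025 and 0.027), and Nlrp6 on TDD (0.33, q = 0.014). Meprin beta, encoded by Mep1b, releases Muc2 from the small intestinal surface and was higher with ABX on CD (0.43, q = 0.016). Of 8 cytokine and receptor genes that act on goblet cells, 0 passed with diet in SPF mice, with diet under ABX or with ABX on CD. In these comparisons 3, 2 and 0 had an unadjusted p under 0.05, beside 28.4%, 14.7% and 26.5% of all genes. Il22ra2 (-1.06, q = 0.010) and Il4ra (-0.37, q = 0.024) were lower with ABX on TDD (15.4% of all genes called).

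Levels of other cell types are given beside these results as measured facts, and their part in the results was not tested. Summed Paneth cell markers, 12 genes of the neighbouring secretory cell, ranged from 11476 to 18550 CPM in CD, 15297 to 18101 in TDD, 10936 to 18535 in CD+ABX and 8991 to 16269 in TDD+ABX. Summed pan-epithelial genes, at 14700.3 ± 1802 CPM in CD and 14725 ± 694 in TDD (SD, n = 5), differed by less than the spread between mice in the comparison in which Clca1 fell. The 10 tuft cell markers tested summed to 83.7 to 114 CPM in CD, 67.3 to 102 in TDD, 109 to 222 in CD+ABX and 93.3 to 167 in TDD+ABX. With ABX 9 of 10 rose on CD and 4 of 10 on TDD, beside 12.6% and 15.4% of all genes called. For diet under ABX 0 passed, beside 1.64% of all genes. There 8 of the 10 had an unadjusted p under 0.05 (edgeR), beside 14.7% of all genes, with a median log2 difference of -0.45. T cell markers fell with ABX on both diets, 9 of 10 on CD and 5 of 10 on TDD, beside 12.6% and 15.4% of all genes called. They summed to 49.4 to 217 CPM in CD, 56.8 to 68.8 in TDD, 32.3 to 41.0 in CD+ABX and 26.5 to 44.4 in TDD+ABX. The 10 B cell markers summed to 8.94 to 140 CPM in CD, 7.48 to 215 in TDD, 5.40 to 12.2 in CD+ABX and 6.27 to 149 in TDD+ABX, so that mice of 1 group differed widely in all groups but CD+ABX. Of 9 colon markers, 4 reached the level tested. Car4 rose with ABX on CD (log2 difference 1.29, q = 0.0011) and on TDD (0.89, q = 0.011), the latter being the comparison in which Clca1 also rose. Saa1 and Slc37a2 fell with ABX on TDD (edgeR), with Saa1 at a mean of under 1 CPM in each group.

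Across the 20 mice the members formed sets that varied together, beyond the differences between groups. Muc2, Tff3, Zg16 and Fcgbp correlated with one another at Pearson r between 0.62 and 0.90 (Spearman rho 0.54 to 0.91, 6 pairs), and at 0.66 to 0.88 after the mean of each group was removed. Agr2, Spdef and Atoh1 correlated at r between 0.56 and 0.77 (rho 0.42 to 0.72, 3 pairs) and at 0.51 to 0.79 with group means removed. Between these sets r was 0.00 to 0.47 over 12 pairs, and 0.14 to 0.46 with group means removed. Leaving out the 2 mice farthest from the median of the first gene gave 0.56 to 0.93, 0.53 to 0.73 and -0.28 to 0.19. Clca1 correlated with the 4 secreted products at 0.38 to 0.59, and with Agr2, Spdef and Atoh1 at -0.25 to 0.07 before and 0.21 to 0.46 after group means were removed. Muc13 correlated with the 4 secreted products at 0.38 to 0.69, and at 0.31 to 0.64 with group means removed. It had r of -0.40 with Spdef, -0.36 with Agr2 and -0.04 with Atoh1. With group means removed these were -0.30, -0.25 and 0.12. These are descriptions with no test. The sets were drawn after the values were seen, and the points share libraries, depth and the share of epithelium in each piece.

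**Figure D5:**
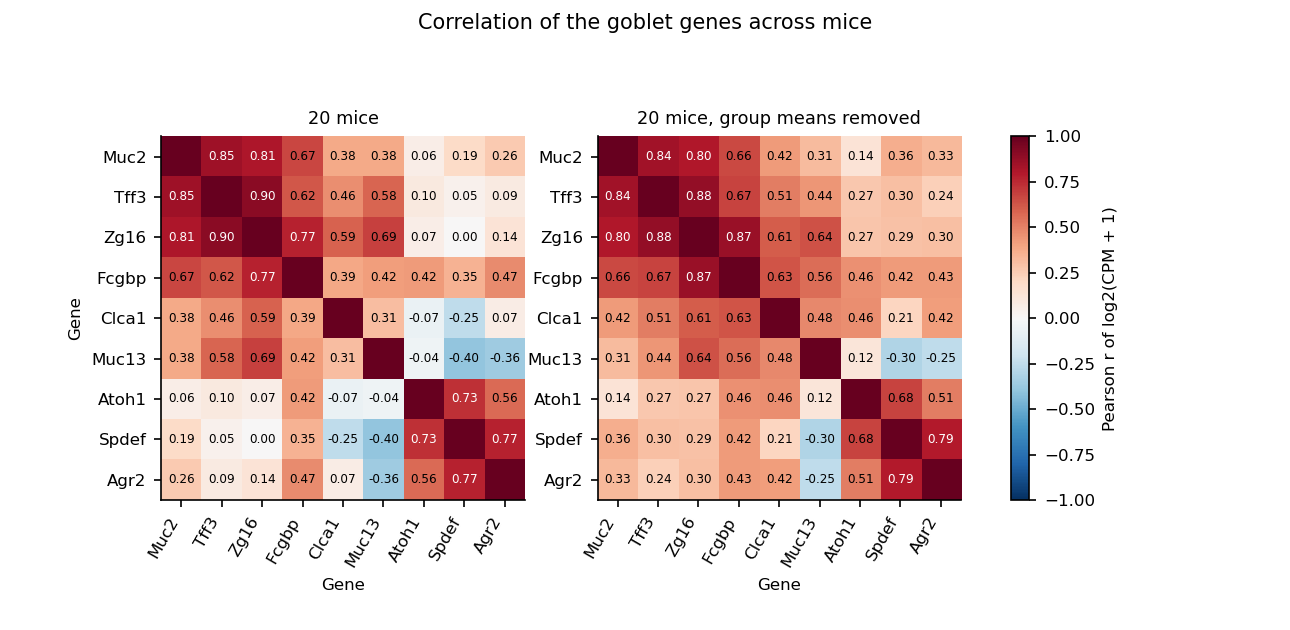
Pearson r of log2(CPM + 1) between the 9 genes over 20 mice, before (left) and after (right) the mean of each group was removed, on a colour scale from -1 to 1. Muc2, Tff3, Zg16 and Fcgbp form 1 block with r of 0.62 to 0.90, and Atoh1, Spdef and Agr2 another with r of 0.56 to 0.77.

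The genes whose levels followed the mean z-score of the 9 members most closely over 20 mice, among 14048 genes with a mean of at least 1 CPM, were P2ry4 (r = 0.82), Rab27b (0.79), Pla2g10 (0.77), Capn9 (0.77), Ptpn9 (0.77), Hepacam2 (0.77), Slc12a8 (0.76), Nxnl2 (0.73), P2rx4 (0.73) and Tvp23b (0.72). Rab27b is a small GTPase of secretory granules, P2ry4 and P2rx4 are receptors for extracellular nucleotides and Pla2g10 is a secreted phospholipase. After group means were removed, Capn9, a calpain of the digestive tract, came first (r = 0.90), ahead of P2ry4 and Bcas1 (both 0.84). Among the members themselves the mean z-score was carried most by Fcgbp (r = 0.89), Zg16 (0.86), Tff3 (0.81) and Muc2 (0.80), and least by Spdef (0.43). The score was lowest in TDD+ABX mouse 5 (-1.36), CD+ABX mouse 3 (-1.34) and TDD mouse 5 (-1.002) and highest in CD mouse 3 (0.83), so that each group but CD had 1 mouse far below the rest.

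The members differ in their own need for tryptophan, the amino acid left out of the diet. Per 100 codons the tryptophan codon TGG occurred 1.12 times in the median of 15493 genes. Clca1-201 held 14 in 913 codons (1.53 per 100), a rate above that of 67.9% of genes, and Fcgbp-201 held 39 in 2583 codons (1.51). Spdef-201, with 11 in 325 codons (3.38), exceeded 97.3% of genes, and Tff3-201 had 2 in 81 codons (2.47). Muc13-201 held 0 in 573 codons. Agr2 (2 in 175), Zg16 (2 in 167) and the partial Muc2-207 (10 in 922) were near the median, and Atoh1 had 2 in 351. Whether this content bears on the levels was not tested.

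Most members were read from 1 main transcript. Tff3 and Atoh1 had 1 each, and Clca1-201, Muc13-201 and the main transcript of Zg16 carried over 99% of the counts of their gene in every mouse. Agr2 was shared between a coding transcript, Agr2-201, and 1 that retains an intron. The latter took 5.25 ± 1.17% of Agr2 counts in CD, 8.68 ± 1.55% in TDD, 6.21 ± 1.16% in CD+ABX and 6.46 ± 2.41% in TDD+ABX (SD, n = 5), values that were not tested. Fcgbp was the least certain in this respect, since Fcgbp-201 took between 48.6% and 94.7% of its counts in single mice and the rest went to shorter transcripts.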

How the data were processed

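Whole ileal RNA of 20 mice was enriched for poly-A and sequenced. The authors aligned reads to the mouse transcriptome (GRCm38, mm10) with kallisto 0.44.0 and deposited a gene table of estimated counts, used here rounded, and transcript files with estimated counts and TPM, used here summed per gene through GENCODE M21. Labels do not state how the gene table was summed. Of 113193 transcripts, 111362 matched, and 164 genes in the deposited gene table were at 2 times their transcript sum.

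edgeR 4.0.16 (R 4.3.3) fitted 4 groups of 5 with robust quasi-likelihood and TMM scaling (factors 0.904 to 1.15). The 16306 genes that reached 0.5 CPM in 1 mouse or more entered the test, p-values were adjusted over all of them by Benjamini-Hochberg (q) and the threshold was 0.05, and the study's 2-fold limit was counted beside it. The study names iDEP but no test within it. The fit was tested on simulated data. Total counts were 36676963 to 58662617. Counting error was not set against the spread between mice for single genes. Mice were taken as separate replicates by their labels, and no 2 libraries were identical.

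Alternatives used other scalings and filters, DESeq2 1.42.0, limma 3.58.1 on counts and on log2(TPM + 1) or log2(TPM + 0.1), 2 groups alone, a replicate block, each mouse left out and, chosen after seeing the data, no robust dispersion. The members and gene lists were chosen with earlier results of these data known. Named genes were the 9 members, up to 5 per list and comparison by q, and the 10 most like the members. Bcas1 was named after its values were seen. Python 3.11.15, scipy 1.17.1 and pandas 2.3.3 were used for description.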

Additional observations from a re-analysis of the deposited data

Results flagged for a closer look

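In each group of 5 mice, the gap of the highest or lowest mouse to its nearest neighbour was divided by the range of the group, and a value above 0.71 was taken as standing apart. Over 36 groups (9 genes in 4 groups) chance gives about 1 in 20, and 4 were found. Fcgbp was low in CD mouse 2 (2358 CPM, gap over range 0.802) and Zg16 was low in the same mouse (1598 CPM, 0.729), the library that lay farthest from its group over all genes. Clca1 was high in TDD+ABX mouse 1 (1478 CPM, 0.725). Muc2 was high in TDD+ABX mouse 4 (1594 CPM, 0.717).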

How the results depend on the processing

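Clca1 kept its direction and its call in all 33 alternatives for diet in SPF mice (log2 difference -1.06 to -0.88) and for ABX on TDD (0.43 to 0.77, q at most 0.040). Its interaction passed in none of 32, at 0.52 to 0.77 with q of 0.14 to 0.56. The number of members called for diet in SPF mice, 1, became 2 with library totals alone, with limma on either TPM scale and with scaling to pan-epithelial genes, where Zg16 joined (-0.45 to -0.38), and ranged from 1 to 3 when single mice were left out, the highest without CD mouse 2. Without that mouse 3098 of 16211 genes passed, against 2342 of 16306 with it. For diet under ABX the number of members called ranged from 0 to 1, the highest without TDD+ABX mouse 5. For ABX on CD it ranged from 0 to 1, the highest without CD mouse 2 (Muc13). It was 5 with scaling to pan-epithelial genes, where 4030 of 16306 genes passed, against 2059 in the main fit. For ABX on TDD the number of members ranged from 1 to 2, the highest without CD mouse 2 (Muc13), a mouse of neither group compared. It was 2 with the 2 groups alone and with scaling to pan-epithelial genes (Muc13 in each). The latter called 4379 of 16306 genes, against 2505 in the main fit. The cause was not tested, except that the last scaling shifts the median of all genes, by -0.23 for ABX on CD and by -0.25 on TDD. Same-numbered mice did not deviate together more than others (median r -0.018 over 30 pairs, 5 above 0.1, against -0.017 over 120 pairs of other numbers). A pairing by number is thus not shown, although these values cannot exclude one. With the replicate block the counts were 1, 0, 0, 1 and 0, as without it, while genes called over the whole table went from 268 to 113 for diet under ABX. No fit of 2 groups alone exists for the interaction. Spdef and Atoh1 had the fewest counts, at 11 to 26.5 CPM. Their SE for diet in SPF mice was 0.15 and 0.16, against 0.15 for Muc2 and 0.17 for Fcgbp.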
